A study of Homo sapiens with 12 samples.

Results

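The genes of mitosis and its spindle checkpoint were examined in docetaxel-resistant and parental prostate cancer cells. The set held 37 genes, chosen by gene name from a fixed list of checkpoint proteins, mitotic kinases, kinetochore subunits and spindle or cytokinesis factors, with the KIF-named kinesins left out, and all 37 were found among the 38611 genes of the count tables. The list was drawn up with earlier results of these data known, so the shares of members called below are descriptions. RNA was sequenced from DU145-R and DU145 parental cells and from PC3-R and PC3 parental cells, with 3 libraries in each of the 4 groups. DU145 and PC3 are established human prostate cancer lines grown from a brain and a bone metastasis. DU145-R and PC3-R were derived from them by stepwise doubling of docetaxel, a taxane that stabilises microtubules and arrests cells in mitosis. Selection began at 10 for DU145-R and 0.5 for PC3-R and ended when the half-maximal inhibitory concentration had come to 1800 for DU145-R and 15 for PC3-R, in a unit the submitters write as nm/ml and do not explain. The labels name 1 resistant line per parental line and do not say whether docetaxel was present when RNA was taken. Nor do they say that the 3 libraries of a group are separate cultures. The p-values therefore measure only how these samples vary, and that variation may be technical.

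In mitosis, the chromosomes are attached to spindle microtubules through kinetochores, protein assemblies built on the centromere. Unattached kinetochores keep the spindle checkpoint active: MAD and BUB proteins hold back CDC20, the activator of the anaphase-promoting complex (APC/C), so that cyclin B and securin are not yet destroyed and the sister chromatids stay together. Taxanes disturb attachment and tension at kinetochores, which is why dividing cells treated with them are held in mitosis by this checkpoint. Most of these genes are transcribed late in the cell cycle, through promoters that carry a CHR element (cell cycle genes homology region, bound by the MuvB complex with MYBL2 or FOXM1) and CCAAT boxes (bound by NF-Y).

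The members were listed by protein function, and these promoter elements are described first, although they were searched for after the levels had been tested. RefSeq promoters (GRCh38.p14, 250 bases before to 50 after the start site) were matched by symbol for 30 of the 37 members and searched on both strands for TTTGAA, the CHR, and for CCAAT. The 2 motifs can overlap by a base. A CHR was present in 21 of the 30 promoters (70.0%), against 15.4% of all 27305 promoters and 10.3% of the 13315 whose genes passed the count filter. A CCAAT box was present in 23 (76.7%), against 35.7% of all promoters, and both motifs were present in 17 (56.7%), against 6.08%. The CHR lay on the gene's strand with its first base 1 to 40 bases before the start site in 11 member promoters (36.7%), against 1.07% of all promoters. The 4 promoters printed here belong to members that led the changes described below and held a CHR: CDCA8 (chr1:37692266-37692565, plus strand), CDC20 (chr1:43358731-43359030, plus strand), MAD2L1 (chr4:120066799-120067098, minus strand) and HMMR (chr5:163460382-163460681, plus strand). They read 5′ to 3′ on the gene's strand, and capitals mark the CHR (TTTGAA, or TTCAAA on the other strand) and the CCAAT box (or ATTGG).
CDCA8: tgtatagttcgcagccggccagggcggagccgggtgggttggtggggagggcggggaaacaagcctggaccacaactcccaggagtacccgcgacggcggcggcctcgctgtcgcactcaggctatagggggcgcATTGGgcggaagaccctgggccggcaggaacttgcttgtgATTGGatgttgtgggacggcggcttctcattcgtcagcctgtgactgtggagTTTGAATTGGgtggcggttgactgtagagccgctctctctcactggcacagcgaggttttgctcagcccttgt
CDC20: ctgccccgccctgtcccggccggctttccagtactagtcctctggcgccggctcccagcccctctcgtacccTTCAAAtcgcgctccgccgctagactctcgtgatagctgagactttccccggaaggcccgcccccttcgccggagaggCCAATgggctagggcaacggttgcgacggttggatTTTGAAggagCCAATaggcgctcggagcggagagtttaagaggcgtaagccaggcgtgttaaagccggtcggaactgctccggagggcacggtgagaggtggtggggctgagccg
MAD2L1: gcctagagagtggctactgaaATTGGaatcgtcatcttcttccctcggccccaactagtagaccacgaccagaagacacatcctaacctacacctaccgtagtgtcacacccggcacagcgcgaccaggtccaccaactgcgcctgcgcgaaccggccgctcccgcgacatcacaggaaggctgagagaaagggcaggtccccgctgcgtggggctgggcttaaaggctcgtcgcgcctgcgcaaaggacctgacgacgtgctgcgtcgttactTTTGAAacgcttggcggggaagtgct
HMMR: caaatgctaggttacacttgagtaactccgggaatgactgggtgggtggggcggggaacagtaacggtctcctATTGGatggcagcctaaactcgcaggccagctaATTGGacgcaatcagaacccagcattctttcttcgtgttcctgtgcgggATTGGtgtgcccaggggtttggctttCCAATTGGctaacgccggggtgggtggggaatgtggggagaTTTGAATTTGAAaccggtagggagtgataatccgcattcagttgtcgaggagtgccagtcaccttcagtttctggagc
In CDCA8 a CHR began 23 bases before the start site, next to a reversed CCAAT box. In HMMR a pair of adjoining CHR copies began 28 and 22 bases before it. In CDC20 the nearer CHR began 65 bases before the start site, between CCAAT boxes that began 100 and 55 bases before it. In MAD2L1 the CHR lay downstream, at base 25 of the transcript. A match of letters is a description and not a measured binding site.

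**Figure D1:**
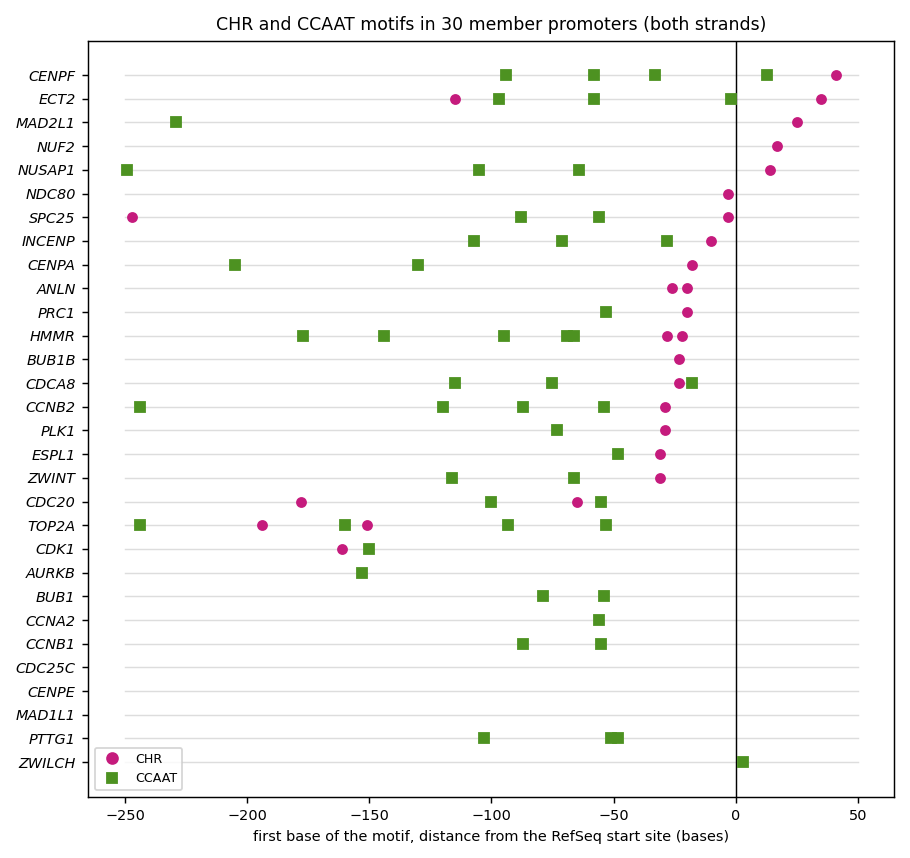
Positions of CHR (circles) and CCAAT (squares) motifs on either strand in the 30 member promoters; the x axis is the distance of a motif's first base from the RefSeq start site in bases, and each row is 1 gene. A CHR (a TTTGAA match) is present in 21 rows, and in 11 it lies on the gene's strand within 40 bases before the start site.

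The libraries were of like depth, with 62513103 to 72530254 counts and 25695 to 26401 genes with a count. All 37 members were among the 24128 genes that passed the count filter, and the least abundant member averaged 898 counts per library. Of 6 epithelial markers, keratins 8, 18 and 19 and EPCAM were present in all groups (KRT18 averaged 188 ± 1.51 FPKM in DU145-R, 97.4 ± 2.04 in DU145 parental, 49.7 ± 1.42 in PC3-R and 68.5 ± 4.11 in PC3 parental cells, SD, n = 3). CDH1 averaged 12.4 ± 0.68 FPKM in DU145-R and 0.65 ± 0.12 in DU145 parental cells, and 0.16 ± 0.09 in PC3-R and 1.63 ± 0.40 in PC3 parental cells (SD, n = 3), and CLDN7 was at 0.62 to 2.93 FPKM. KRT8, KRT18, EPCAM, CDH1 and CLDN7 were higher in DU145-R than in DU145 parental cells and KRT19 was lower, and all 6 were lower in PC3-R than in PC3 parental cells, by their means. Leukocyte and fibroblast markers were near 0. Of 4 endothelial markers CDH5 and VWF were near 0 in all groups, while PECAM1 and KDR were near 0 in DU145 and present in PC3. PECAM1 had 3.42 ± 0.49 FPKM in PC3-R and 2.35 ± 0.09 FPKM in PC3 parental cells, and KDR had 6.23 ± 1.35 FPKM in PC3-R and 27.9 ± 4.63 FPKM in PC3 parental cells (SD, n = 3); their part in the results was not tested. Library 1 of PC3-R stood apart from the other libraries of its group (chi-square of 37.1 and 37.2 per gene, where those gave 17.9 between them); every member called between PC3-R and PC3 parental except ECT2 was also called without it. Mitochondrial genes took 7.04% to 7.14% of counts in DU145-R and 3.98% to 4.30% in DU145 parental cells, and 3.46% to 3.55% in PC3-R and 5.68% to 6.04% in PC3 parental cells, and the part of this in the results was not tested beyond the scalings compared.

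The mitotic genes were more abundant in both resistant lines, and the difference was larger in PC3. Their summed level was 5894, 5864 and 5712 CPM (counts per fixed library total, after TMM scaling) in DU145-R, against 5057, 4981 and 4674 CPM in DU145 parental cells, a ratio of 1.19. In PC3-R it was 5145, 4980 and 5234 CPM, against 2900, 2986 and 2776 CPM in PC3 parental cells, a ratio of 1.77. The libraries of resistant and parental cells did not overlap in either line. The PC3 parental libraries were the lowest of all, and those of PC3-R overlapped with DU145 parental cells. In bulk RNA, a larger share of cells in mitosis and more of these transcripts per cell cannot be told apart.

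**Figure D2:**
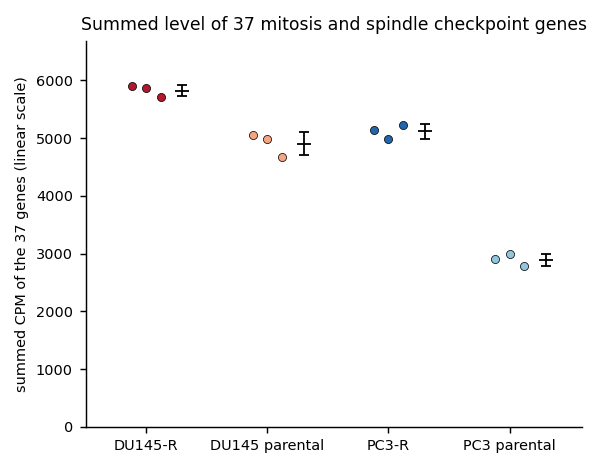
Summed CPM of the 37 genes in each library, on a linear axis from 0; points are libraries, and the bar beside them is the mean ± SD of 3. The mean was 5824 in DU145-R and 4904 in DU145 parental cells, and 5120 in PC3-R and 2887 in PC3 parental cells.

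Tested one by one with edgeR's quasi-likelihood test, 25 of the 37 members were higher in DU145-R than in DU145 parental cells, 1 was lower and 11 did not pass an adjusted p (Benjamini-Hochberg, over all genes tested) of 0.05. Over all genes tested 18.9% were called higher and 20.7% lower, and over the 9913 genes at least as abundant as the least abundant member the shares were 30.2% and 37.2%. Only AURKA and UBE2C rose by at least 2-fold, a size reached by 7.19% of all genes tested. In PC3-R 35 members were higher than in PC3 parental cells, none was lower, and MAD1L1 and CENPA did not pass. No member had a log2 change below 0 in PC3, the lowest being 0.13 in ECT2, so none was lower at an unadjusted p under 0.05 either, and DESeq2 also called 35 higher and 0 lower. There 22.4% of all genes tested were called higher and 21.6% lower, or 40.7% and 31.2% of those as abundant as the members. At least 2-fold higher were 13 members, against 7.16% of all genes tested. The median log2 change of the members was 0.22 in DU145, where all genes had a median of 0.00 and abundant genes one of -0.05, and 0.88 in PC3, where those medians were 0.00 and 0.07. The same direction in both lines was called for 24 members. Calls shared by both lines were not counted over all genes, so this number has no background to be set against. The balance in DU145 depended on scaling: on values scaled to TPM, which divides by the summed FPKM of a library, where the median of all genes itself moved to -0.16, 14 members were called higher and 7 lower (CENPF, PTTG1, MAD2L1, BUB1, NUF2, SPC25 and ECT2). The calls lost there were those of BUB3, TTK, CDC20, ANLN, TOP2A, CDCA8, NDC80, ZWINT, ESPL1, CCNB2 and ZWILCH. The members' median was 0.24 above that of all genes on this scale. In PC3 the TPM scale moved the median of all genes to 0.10 and gave 36 members higher and none lower.

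**Figure D3:**
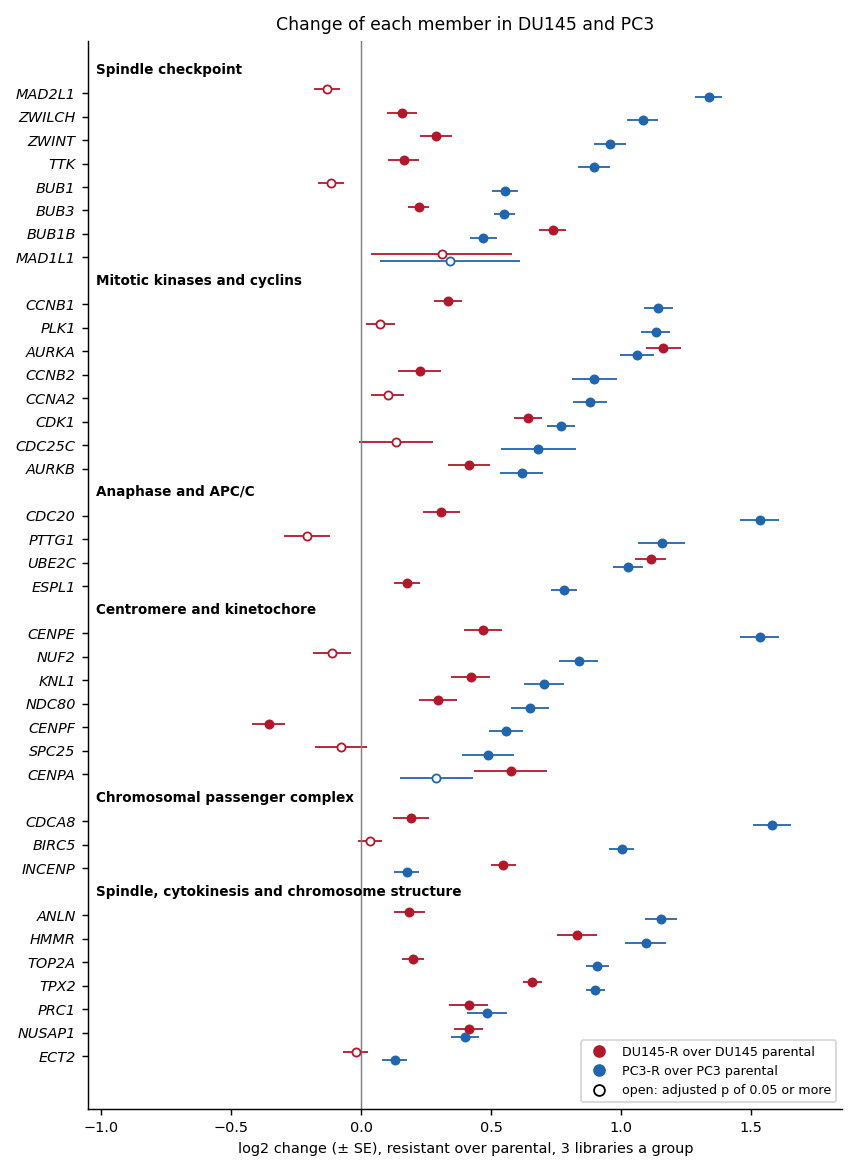
Log2 change ± SE of each member (x axis; 3 libraries a group), resistant over parental, in DU145 (red) and PC3 (blue), grouped by role; open symbols did not pass an adjusted p of 0.05. The PC3 changes run from 0.13 to 1.58 and the DU145 changes from -0.36 to 1.16.

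The spindle checkpoint genes proper were BUB1, BUB1B, BUB3, MAD1L1, MAD2L1 and TTK, listed here with ZWILCH and ZWINT, which work in the Rod-Zw10-Zwilch arm and its kinetochore link. Of these 8 genes 5 rose in DU145-R and 7 rose in PC3-R, and none fell in either, although BUB1 and MAD2L1 were lower in DU145-R at an unadjusted p of 0.0337 and 0.0217 in the edgeR test. Both passed as lower in DU145-R in limma on log2(FPKM + 1) (adjusted p = 0.0188 for BUB1 and 0.0128 for MAD2L1), on log2(FPKM + 0.1) (0.0196 and 0.0142) and on the TPM scale (0.000865 and 0.000495). MAD2L1 also passed with DESeq2 (adjusted p = 0.0485) and in edgeR with a filter of at least 1 CPM in 3 libraries (adjusted p = 0.0484). MAD2L1, whose product is the checkpoint protein that binds CDC20, had 88.8, 89.4 and 83.1 CPM in DU145-R, against 95.7, 97.0 and 93.5 CPM in DU145 parental cells. It had 117, 116 and 119 CPM in PC3-R, against 45.4, 49.8 and 44.3 CPM in PC3 parental cells. The PC3 groups were far apart, with a 2.52-fold rise (log2 change 1.34 ± 0.05 SE, adjusted p = 1.39e-11), while in DU145 every resistant library lay below every parental one without passing the test (log2 change -0.13 ± 0.05 SE, adjusted p = 0.0541). That DU145 value passed when either of 2 PC3 parental libraries, 2 or 3, was left out (adjusted p = 0.031 without library 2 and 0.0429 without library 3). BUB1B encodes BUBR1, the other CDC20-binding arm of the checkpoint. It had 181, 175 and 170.5 CPM in DU145-R, against 109, 105 and 102 CPM in DU145 parental cells. It had 136, 129 and 134 CPM in PC3-R, against 93.0, 104 and 91.2 CPM in PC3 parental cells. Resistant libraries were higher in both lines with no overlap, by 1.67-fold in DU145 (adjusted p = 1.1e-08) and 1.38-fold in PC3 (adjusted p = 1.42e-06).

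The kinase BUB1, which marks centromeres for the checkpoint, had 149, 141 and 137 CPM in DU145-R, against 160.3, 156 and 146 CPM in DU145 parental cells. It had 104, 106 and 109 CPM in PC3-R, against 69.9, 76.2 and 70.8 CPM in PC3 parental cells. BUB1 rose in PC3 (log2 change 0.55 ± 0.05 SE, adjusted p = 1.67e-07), and in DU145 its groups overlapped (log2 change -0.12 ± 0.05 SE, adjusted p = 0.0784). BUB3, the partner that brings BUB1 and BUBR1 to kinetochores, had 221, 214 and 216 CPM in DU145-R, against 186, 184 and 188 CPM in DU145 parental cells. It had 179.8, 181 and 187 CPM in PC3-R, against 125, 130.2 and 119 CPM in PC3 parental cells. BUB3 rose in both lines without overlap (log2 change 0.22 ± 0.04 SE in DU145 and 0.55 ± 0.04 SE in PC3, adjusted p = 0.00034 and 1.53e-08). TTK, the MPS1 kinase that starts checkpoint signalling, had 63.4, 66.5 and 66.0 CPM in DU145-R, against 62.3, 56.3 and 56.5 CPM in DU145 parental cells. It had 54.1, 50.9 and 54.9 CPM in PC3-R, against 28.4, 29.9 and 27.6 CPM in PC3 parental cells. TTK rose 1.86-fold in PC3 (adjusted p = 6.83e-09), and its small rise in DU145 (log2 change 0.16 ± 0.06 SE, adjusted p = 0.0439) did not pass when any 1 of 8 libraries was left out, without a filter (adjusted p = 0.0706) or with the replicate block (adjusted p = 0.0626).

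MAD1L1, the kinetochore anchor of MAD2, had the lowest mean FPKM of the members in every group, although CDC25C was lower in CPM in 3 of the 4. It had 16.9, 14.3 and 16.1 CPM in DU145-R, against 13.0, 11.4 and 13.9 CPM in DU145 parental cells. It had 23.3, 15.7 and 24.1 CPM in PC3-R, against 8.97, 18.7 and 22.1 CPM in PC3 parental cells. The PC3 libraries overlapped and varied widely, and neither line's change passed (adjusted p = 0.43 in DU145 and 0.352 in PC3), although the DU145 value did in the 6 DU145 libraries alone (adjusted p = 0.0494). ZWINT, which links KNL1 to the checkpoint complexes, was by contrast the most abundant member per length in both PC3 groups, with 203 ± 5.59 FPKM in PC3-R and 108 ± 3.40 FPKM in PC3 parental cells (SD, n = 3). It had 118, 103 and 119 CPM in DU145-R, against 90.3, 101 and 86.7 CPM in DU145 parental cells, and 497, 485 and 512 CPM in PC3-R, against 258, 264 and 249 CPM in PC3 parental cells. It rose 1.22-fold in DU145 (adjusted p = 0.00124) and 1.94-fold in PC3 (adjusted p = 2.94e-09), with no overlap in either. ZWILCH rose as well, by 0.16 ± 0.06 in DU145 and 1.08 ± 0.06 in PC3 on the log2 scale (SE, adjusted p = 0.044 and 5.18e-10), but the DU145 value did not pass without a filter (adjusted p = 0.0741), on the TPM scale (adjusted p = 0.897) or without any 1 of 7 libraries.

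**Figure D4:**
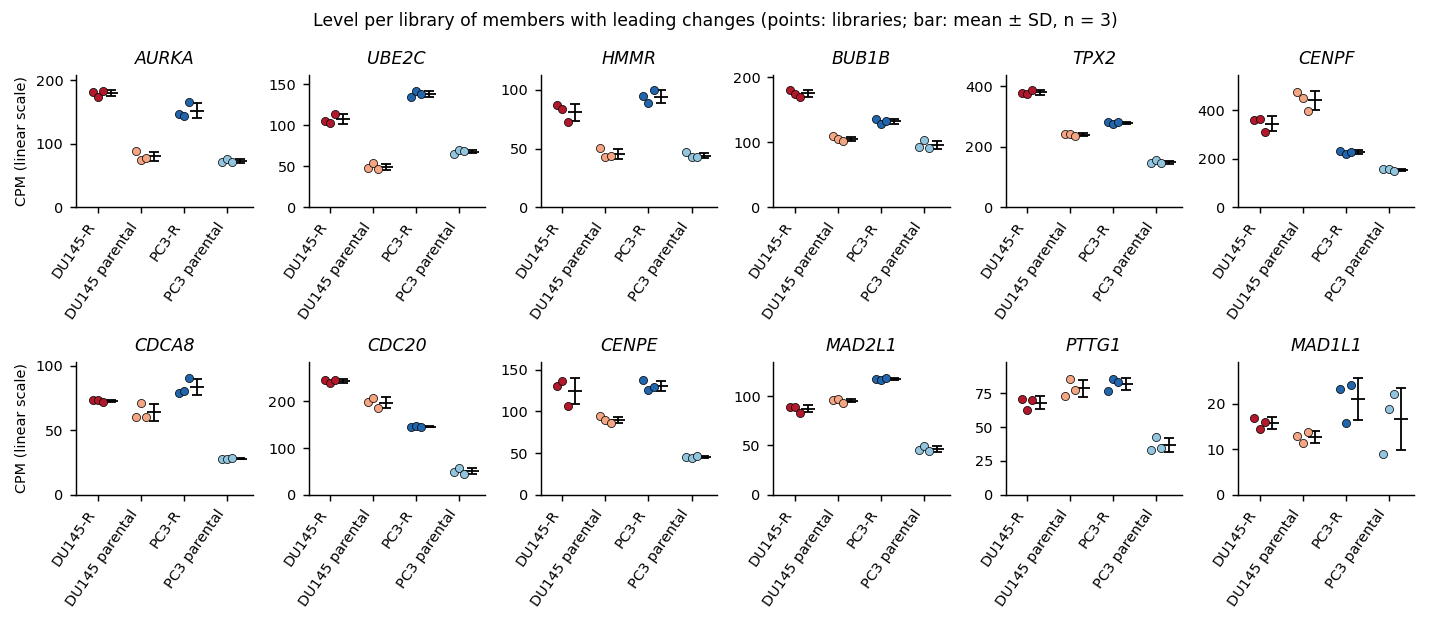
CPM per library (linear axes from 0; points are libraries, bars the mean ± SD of 3) for 12 members: the 5 leading changes of each line, CENPF and MAD1L1. AURKA, UBE2C and HMMR stand apart from parental cells in both lines, CDCA8, CDC20 and CENPE differ most in PC3, and the MAD1L1 libraries of PC3 overlap.

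Among the mitotic kinases and cyclins, 5 of 8 rose in DU145-R and all 8 rose in PC3-R. AURKA (20:56369389-56392296, minus strand), the Aurora A kinase of centrosomes and spindle poles, showed the largest rise of any member in DU145. It had 182, 174 and 182 CPM in DU145-R, against 88.6, 74.7 and 77.3 CPM in DU145 parental cells, and 147, 143 and 166 CPM in PC3-R, against 71.4, 76.6 and 70.9 CPM in PC3 parental cells. The rise was 2.24-fold in DU145 (adjusted p = 1.28e-09) and 2.08-fold in PC3 (adjusted p = 2.52e-09), and no libraries overlapped. AURKB, the Aurora kinase of the chromosomal passenger complex, had 91.2, 86.6 and 87.7 CPM in DU145-R, against 69.4, 65.8 and 64.0 CPM in DU145 parental cells. It had 34.5, 30.7 and 38.4 CPM in PC3-R, against 24.6, 22.8 and 20.2 CPM in PC3 parental cells. AURKB rose in both (log2 change 0.41 ± 0.08 SE in DU145 and 0.62 ± 0.08 SE in PC3, adjusted p = 0.000632 and 1.43e-05), and PC3-R remained below DU145 parental cells. PLK1, which drives mitotic entry and centrosome maturation, rose 2.19-fold in PC3 (adjusted p = 1.67e-10), while its DU145 groups overlapped (log2 change 0.07 ± 0.05 SE, adjusted p = 0.341). CDK1, the main mitotic kinase, and its partner cyclin B1 (CCNB1) rose in both lines: CDK1 by 1.56-fold in DU145 and 1.70-fold in PC3, and CCNB1 by 1.26-fold and 2.21-fold. CCNB2 rose by 0.90 in PC3 on the log2 scale, and its rise of 0.22 in DU145 (adjusted p = 0.0422) did not pass under 11 of 22 alternatives, among them the replicate block (adjusted p = 0.0572) and leaving out any 1 of 8 libraries. Cyclin A2 (CCNA2) and the CDK1-activating phosphatase CDC25C rose in PC3 (log2 change 0.88 ± 0.06 and 0.68 ± 0.14 SE) and did not pass in DU145 (0.10 ± 0.06 and 0.13 ± 0.14 SE, adjusted p = 0.237 and 0.525).

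The genes of anaphase onset were CDC20, UBE2C, PTTG1 and ESPL1, of which 3 rose in DU145-R and 4 in PC3-R. CDC20, the APC/C activator restrained by the checkpoint, had 246, 239 and 247 CPM in DU145-R, against 198, 208 and 185 CPM in DU145 parental cells. It had 146, 148 and 145 CPM in PC3-R, against 49.6, 57.8 and 44.1 CPM in PC3 parental cells. Its rise was 1.24-fold in DU145 (adjusted p = 0.00273) and 2.89-fold in PC3 (adjusted p = 1.92e-10), and even so every PC3-R library lay below the DU145 parental ones. UBE2C (20:45812576-45816957, plus strand), the ubiquitin-conjugating enzyme that works with the APC/C, had 106, 103 and 114 CPM in DU145-R, against 48.5, 53.8 and 46.8 CPM in DU145 parental cells. It had 135, 142 and 138 CPM in PC3-R, against 65.5, 70.1 and 68.7 CPM in PC3 parental cells. UBE2C about doubled in both lines, 2.16-fold in DU145 (adjusted p = 4.51e-10) and 2.04-fold in PC3 (adjusted p = 7.74e-10), without overlap. PTTG1, securin, had 71.3, 62.7 and 70.3 CPM in DU145-R, against 73.4, 85.7 and 77.2 CPM in DU145 parental cells. It had 76.6, 85.6 and 83.7 CPM in PC3-R, against 33.3, 42.8 and 34.4 CPM in PC3 parental cells. PTTG1 rose 2.23-fold in PC3 (adjusted p = 3.78e-08), and in DU145 all resistant libraries lay below the parental ones without passing (log2 change -0.21 ± 0.09 SE, adjusted p = 0.0778). It passed as lower without PC3 parental library 2 (adjusted p = 0.0277), in the 6 DU145 libraries alone (adjusted p = 0.0328), and in limma on log2(FPKM + 1) (adjusted p = 0.0493) and on the TPM scale (adjusted p = 0.00572). ESPL1, separase, the protease that securin inhibits, rose by 0.17 ± 0.05 in DU145 and 0.78 ± 0.05 in PC3 on the log2 scale (SE, adjusted p = 0.0095 and 2.86e-09).

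At the centromere and kinetochore, 4 of 7 members rose and 1 fell in DU145-R, and 6 of 7 rose in PC3-R. CENPE (4:103105349-103198445, minus strand), a kinesin-type motor that brings chromosomes to the metaphase plate, had 130.1, 137 and 107 CPM in DU145-R, against 94.0, 89.5 and 86.4 CPM in DU145 parental cells. It had 138, 126 and 129 CPM in PC3-R, against 45.8, 44.0 and 45.9 CPM in PC3 parental cells. The rise was 1.38-fold in DU145 (adjusted p = 8.23e-05) and 2.89-fold in PC3 (adjusted p = 1.66e-10), and no libraries overlapped. CENPF, a large protein of the outer kinetochore and nuclear matrix, was the single member that fell in DU145-R, and it is described for that reason, after its values were seen. It had 358, 364 and 309.9 CPM in DU145-R, against 475, 449 and 398 CPM in DU145 parental cells, and 233, 219 and 229.5 CPM in PC3-R, against 157, 156 and 150.2 CPM in PC3 parental cells. The directions were opposite and called in both, 1.28-fold lower in DU145-R (adjusted p = 0.000348) and 1.47-fold higher in PC3-R (adjusted p = 3.47e-06). CENPA, the centromeric histone, was the reverse case of a rise called in DU145 (log2 change 0.57 ± 0.14 SE, adjusted p = 0.00349) and not in PC3 (0.29 ± 0.14 SE, adjusted p = 0.114), though the PC3 value passed without PC3 parental library 2 (adjusted p = 0.0134) and on the TPM scale (adjusted p = 0.0324). The CENPA difference between the lines did not pass (adjusted p = 0.282). Of the microtubule-binding NDC80 complex, NDC80 rose in both lines (log2 change 0.30 ± 0.07 SE in DU145 and 0.65 ± 0.07 SE in PC3), as did its platform KNL1 (0.42 ± 0.08 SE in DU145 and 0.70 ± 0.08 SE in PC3). Its subunits NUF2 and SPC25 rose in PC3 (0.84 ± 0.07 and 0.49 ± 0.10 SE), and in DU145 they were at -0.11 ± 0.07 and -0.08 ± 0.10 (SE), with overlapping libraries.

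The chromosomal passenger complex corrects faulty attachments and is made of AURKB with INCENP, survivin (BIRC5) and borealin (CDCA8). CDCA8 (1:37692481-37709719, plus strand) had 73.5, 73.3 and 71.7 CPM in DU145-R, against 59.9, 71.1 and 60.5 CPM in DU145 parental cells. It had 78.8, 80.7 and 90.5 CPM in PC3-R, against 27.8, 27.4 and 28.5 CPM in PC3 parental cells. In PC3 the 2.99-fold rise was the largest of all members (adjusted p = 6.48e-11), and in DU145 the rise was 1.14-fold (adjusted p = 0.0392) and did not pass when any 1 of 6 libraries was left out. BIRC5 rose 2.00-fold in PC3 (adjusted p = 1.05e-10), and its DU145 groups overlapped (log2 change 0.03 ± 0.05 SE, adjusted p = 0.661). INCENP, the scaffold, had the opposite balance, with 1.46-fold in DU145 (adjusted p = 2.19e-07) and 1.13-fold in PC3 (adjusted p = 0.00852).

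Of the 7 genes of the spindle, cytokinesis and chromosome structure, 6 rose in DU145-R and 7 in PC3-R. TPX2 (20:31739271-31801805, plus strand), the activator of Aurora A on spindle microtubules, had 378, 373 and 386 CPM in DU145-R, against 244, 242 and 236 CPM in DU145 parental cells. It had 280.2, 275 and 281 CPM in PC3-R, against 148, 155 and 145 CPM in PC3 parental cells. TPX2 rose 1.58-fold in DU145 (adjusted p = 7.85e-10) and 1.86-fold in PC3 (adjusted p = 2.02e-11), with tight libraries and no overlap. HMMR, a spindle-pole protein that also binds hyaluronan, had 86.8, 83.3 and 72.9 CPM in DU145-R, against 50.2, 42.7 and 43.9 CPM in DU145 parental cells. It had 94.4, 88.5 and 99.8 CPM in PC3-R, against 46.8, 42.9 and 42.7 CPM in PC3 parental cells. The HMMR rise was 1.78-fold in DU145 (adjusted p = 3.39e-07) and 2.13-fold in PC3 (adjusted p = 1.05e-08), again without overlap. TOP2A, the topoisomerase that untangles sister chromatids, had 796, 806 and 740.4 CPM in DU145-R, against 714, 692 and 635 CPM in DU145 parental cells, and 402, 387 and 392 CPM in PC3-R, against 210.1, 212 and 207 CPM in PC3 parental cells. TOP2A was the most abundant member per length in both DU145 groups, with 124 ± 5.50 FPKM in DU145-R and 109.5 ± 5.23 FPKM in DU145 parental cells (SD, n = 3), and it rose by 0.20 ± 0.04 in DU145 and 0.91 ± 0.04 in PC3 on the log2 scale (SE, adjusted p = 0.0017 and 1.52e-10). Anillin (ANLN), which organises the cleavage furrow, rose 2.22-fold in PC3 and 1.14-fold in DU145. The microtubule bundlers NUSAP1 and PRC1 rose in both lines, NUSAP1 by 0.41 ± 0.05 in DU145 and 0.40 ± 0.05 in PC3 and PRC1 by 0.41 ± 0.08 in DU145 and 0.48 ± 0.08 in PC3 on the log2 scale (SE). ECT2, the RHOA activator of cytokinesis, was at -0.02 ± 0.05 in DU145 (SE, adjusted p = 0.798), and its rise of 0.13 ± 0.05 in PC3 (SE, adjusted p = 0.045) did not pass when any 1 of 10 libraries was left out.

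The change in PC3 was then set against that in DU145 as an interaction in the same edgeR model. The change was larger in PC3 for 25 members and smaller for 2, BUB1B and INCENP, with 10 not passing. Over all genes tested 22.1% were called larger in PC3 and 20.0% smaller, or 41.0% and 29.0% of the genes as abundant as the members. The leading differences on the log2 scale (PC3 change minus DU145 change) were those of MAD2L1 (1.47 ± 0.07 SE, adjusted p = 2.16e-10), CDCA8 (1.39 ± 0.10 SE, adjusted p = 1.29e-08), PTTG1 (1.36 ± 0.13 SE, adjusted p = 3.04e-07), CDC20 (1.22 ± 0.10 SE, adjusted p = 1.03e-07) and CENPE (1.06 ± 0.10 SE, adjusted p = 5.07e-07). In the DU145 libraries given above, MAD2L1 and PTTG1 were lower in DU145-R without passing, and CDCA8, CDC20 and CENPE rose by less than in PC3. Of the leading changes of DU145, AURKA (-0.10 ± 0.09 SE, adjusted p = 0.438), UBE2C (-0.09 ± 0.08 SE, adjusted p = 0.447) and HMMR (0.27 ± 0.11 SE, adjusted p = 0.0644) did not pass, which does not show that the changes were equal. The HMMR difference passed with the replicate block (adjusted p = 0.0436), on the TPM scale (adjusted p = 0.00333) and without any 1 of 4 libraries (adjusted p = 0.0438 to 0.0476). On the TPM scale 30 members were called larger in PC3 and none smaller, with AURKB, CDK1, ECT2, HMMR and NUSAP1 added.

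The parental lines also differed in these genes. In PC3 parental cells 29 members were lower than in DU145 parental cells and 4 were higher, namely ZWINT, UBE2C, CDK1 and INCENP, while MAD1L1, AURKA, BIRC5 and HMMR did not pass. BIRC5 passed as lower in PC3 parental cells under 12 of 22 alternatives, among them DESeq2 (adjusted p = 0.0204) and RLE scaling in edgeR (adjusted p = 0.0328), and AURKA did under 5, among them upper-quartile scaling (adjusted p = 0.0217). The calls of BUB1B, CENPA and KNL1 as lower were lost without any 1 of 4, 3 and 1 libraries. Over all genes tested 29.5% were called lower and 30.9% higher, or 42.9% and 41.1% of the genes as abundant as the members. The largest of these differences were in CDC20, 3.90-fold lower in PC3 parental cells (adjusted p = 3.13e-12), TOP2A, 3.24-fold lower (adjusted p = 2.87e-14), and AURKB, 2.95-fold lower (adjusted p = 1.36e-10), while ZWINT was 2.77-fold higher (adjusted p = 6.81e-12). The 3 PC3 parental libraries of CDC20, TOP2A and AURKB lay below all libraries of the other groups. PC3 parental cells had the lowest of the 4 group means in 32 members. The highest mean was that of DU145-R in 21 members and of PC3-R in 12, and PC3-R lay below DU145 parental cells in 18. These rankings were not counted over all genes, so they have no background to be set against. The within-line change in PC3 and this parental difference share the PC3 parental libraries, so a low value there enters both. Without PC3 parental library 1, MAD1L1 also passed as higher in PC3 parental cells (adjusted p = 0.00297).

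The members also differed by chromosome, a grouping chosen after their values were seen. In DU145, 3 of the 5 leading members, AURKA, UBE2C and TPX2, lie on chromosome 20, where the 288 genes as abundant as the members had a median log2 change of 0.29 and 56.9% were called higher. The 6 members on chromosome 15 (BUB1B, CCNB2, NUSAP1, PRC1, ZWILCH and KNL1) all rose in DU145-R, and the 323 abundant genes there had a median of 0.23 with 52.6% called higher. In PC3 the same medians were 0.07 on chromosome 20 and 0.05 on chromosome 15. There, chromosome 1, with CDC20, CDCA8, CENPF and NUF2, had a median of 0.40 over 1028 abundant genes, and chromosome 4, with MAD2L1, CENPE and CCNA2, one of 0.31 over 341. In DU145 these medians were -0.13 and -0.14. Compared with the median of the abundant genes of its own chromosome, the change was higher for 31 of 37 members in DU145 and for 37 of 37 in PC3. The median difference over the members was 0.25 in DU145 and 0.75 in PC3. By definition as many abundant genes lie above such a median as below it, and the differences of other genes were not tabulated. The part of chromosome-wide differences in the members' changes was not tested further.

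Other genes of the same machinery were counted next. Of 174 other genes listed for the APC/C, the kinetochore, condensin and cohesin, mitotic kinases and phosphatases, the spindle, transcriptional control, DNA replication and proliferation, 57 were higher and 43 lower in DU145-R, and 134 were higher and 10 lower in PC3-R. In DU145 these are 32.8% and 24.7%. The shares were 18.9% and 20.7% of all genes tested, and 30.2% and 37.2% of the genes as abundant as the members. The listed genes had to pass the count filter only, so the abundant genes are not matched to them. The share called higher was near that of the abundant genes and above that of all genes. In PC3 the listed genes gave 77.0% and 5.75%, against 22.4% and 21.6% of all genes tested and 40.7% and 31.2% of the abundant ones. The change was larger in PC3 for 107 listed genes and smaller for 19 (61.5% and 10.9%). Over all genes tested these shares were 22.1% and 20.0%, and over the abundant genes 41.0% and 29.0%. On the TPM scale 41 were higher and 75 lower in DU145-R. Of 33 DNA replication and S phase genes, 14 were higher and 3 lower in DU145-R, and 31 were higher and 1 lower in PC3-R. Of 21 APC/C subunits and regulators, 3 were higher and 6 lower in DU145-R, and 10 were higher and 3 lower in PC3-R. In PC3-R their 47.6% higher was near the share of abundant genes (40.7%) and above that of all genes tested (22.4%). Of 31 further kinetochore genes, 12 were higher and 6 lower in DU145-R, and 25 were higher and none lower in PC3-R, where CENPQ and SPC24 had log2 changes below 0 (-0.29 and -0.59, adjusted p = 0.146 and 0.326). Condensin and cohesin had 10 higher and 6 lower of 20 in DU145-R, and 18 higher and 1 lower in PC3-R. Of 28 spindle and cytokinesis genes, 6 were higher and 9 lower in DU145-R, and 23 were higher and 1 lower in PC3-R. Mitotic entry and exit kinases and phosphatases had 4 higher and 7 lower of 21 in DU145-R, and 13 higher and 3 lower in PC3-R. Of 19 transcriptional regulators, 7 were higher and 6 lower in DU145-R, and 13 were higher and 1 lower in PC3-R. The largest change among the listed genes was in STAG2, a cohesin subunit, with 96.3, 97.1 and 77.1 CPM in DU145-R, against 10.4, 11.2 and 10.6 CPM in DU145 parental cells, an 8.41-fold rise (adjusted p = 1.02e-13). SKA3 and CENPH, of the kinetochore, and RFC3, a clamp loader subunit of DNA replication, followed in DU145-R (2.50-fold, 2.44-fold and 2.38-fold). In PC3-R the leading listed genes were GINS3 of the replicative helicase (3.24-fold), CENPU of the inner kinetochore (3.06-fold), the mitotic kinase PBK (3.02-fold) and UHRF1, which helps copy DNA methylation (2.99-fold). Libraries of resistant and parental cells did not overlap in any of these 8 genes in the line named. Since the 8 were picked for the size of their called changes, this adds no support.

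**Figure D5:**
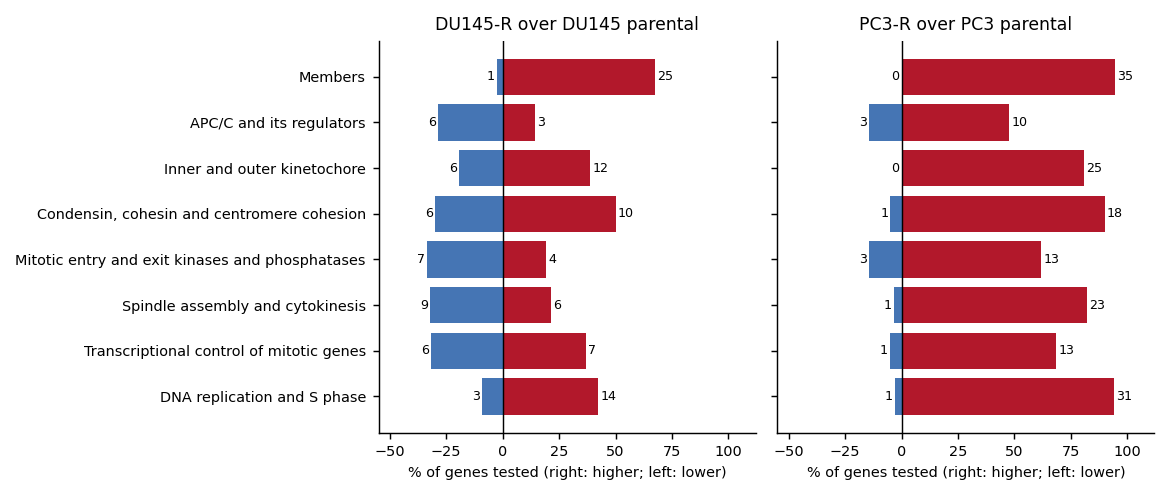
Percentage of the genes tested in each list that were called higher (right, red) or lower (left, blue) in resistant over parental cells, with the number of genes at each bar; DU145 is on the left panel and PC3 on the right. In DU145 the listed genes other than the members go both ways, and in PC3 more genes are called higher than lower in each list shown.

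The proliferation marker MKI67 had 940.2, 956 and 884 CPM in DU145-R, against 681, 671 and 607 CPM in DU145 parental cells. It had 494, 444 and 486 CPM in PC3-R, against 337, 332 and 324 CPM in PC3 parental cells. MKI67 rose in both lines without overlap (log2 change 0.52 ± 0.05 in PC3 and 0.51 ± 0.05 in DU145, SE, adjusted p = 3.07e-07 and 5.61e-07). The difference between the lines, 0.01 ± 0.07 (SE), did not pass (adjusted p = 0.934), but on the TPM scale it did (0.24, adjusted p = 0.0185). Of the factors that act through the CHR, named for that role after their values were seen, FOXM1 rose by 0.82 ± 0.05 in PC3 (log2, SE, adjusted p = 1.72e-09) and fell by 0.20 ± 0.05 in DU145 (adjusted p = 0.00349), a difference of 1.03 ± 0.07 (SE, adjusted p = 8.75e-09). MYBL2 rose in both, by 0.54 ± 0.05 in PC3 and 0.76 ± 0.05 in DU145 (SE, adjusted p = 1.24e-07 and 3.61e-09). The members with a promoter sequence were split by a TTTGAA match on either strand, anywhere in the window. With a match, the median log2 change was 0.22 in DU145 (15 of 21 genes higher) and 0.78 in PC3 (20 of 21 higher). Without one, it was 0.16 in DU145 (4 of 9 higher) and 0.88 in PC3 (8 of 9 higher). Other forms of the CHR were not searched for, and a match need not be bound. The split therefore does not separate genes with a working CHR from genes without one. The part of cell number in mitosis, of FOXM1 or of MYBL2 in the members' levels was not tested.

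Counting limits some members. The annotated spans of BUB1B, MAD1L1, CCNA2, CENPA, NUSAP1, PRC1, ANLN, NUF2, SPC25 and ZWILCH overlap another gene with counts of its own, and since the strand setting of the counting is not given in the sources used here, reads of either may have been assigned to them. BUB1, BUB3, AURKA, CDC20, CCNB2, UBE2C and PTTG1 have pseudogene or paralogous copies that may have shared reads.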

How the data were processed

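Poly(A)-selected RNA was sequenced in 12 paired-end libraries, 3 per group, with dUTP in the second strand, per the labels' protocols. The authors deposited 1 table per library with whole-number counts and FPKM values for 38611 genes. Tools listed in the submitters' processing notes, in no order, are StringTie 1.3.4d, HISAT2 2.0.4, cutadapt 1.9, edgeR and DESeq2, with the build hg18. The coordinates in the deposited count tables are instead those of GRCh38: of 37385 gene IDs also in GENCODE, 37340 overlapped and 23671 had the same start and end (37 and 11 of the 37 members). Neither the counting program nor its strand setting is given in the sources used here.

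Counts were filtered with filterByExpr (24128 genes), scaled by TMM and fitted with 1 mean per group over the 12 libraries (8 residual degrees of freedom) with edgeR 4.0.16, robust, in R 4.3.3. Contrasts were tested two-sided by quasi-likelihood F test, with Benjamini-Hochberg adjustment over all genes tested. A gene was called at an adjusted p under 0.05. The SE of a log2 change is its size over the square root of F. The fit was tested on simulated data: log2 changes were recovered without bias and among genes of at least 5 CPM nearly all 4-fold changes were called, but not all 2-fold ones. Of simulated log2 changes of 0.5 in such genes, 20 of 35 were called in DU145 and 18 of 32 in PC3. A missed call therefore does not show that a gene did not change. Far fewer genes were changed in the simulation than were called in the data, so its rates need not hold for the data. The pass mark of that test was changed after it was missed, from 4-fold changes over all genes tested to 2-fold or larger ones among genes of at least 5 CPM, and then to 4-fold ones among those genes. Levels are CPM or, for comparisons between genes, the deposited FPKM. Alternatives were RLE and upper-quartile scaling, no filter or at least 1 CPM in 3 libraries, DESeq2 1.42.0, limma 3.58.1 on log2(FPKM + 1), log2(FPKM + 0.1) and log2(TPM + 1) for genes with a mean FPKM of at least 1, the replicate number as a block, the 6 libraries of a comparison alone, and leaving out each library.

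The members and gene lists were chosen with earlier results of these data known. Every member is named; values in every library are given for the 5 largest called changes in each line and in their difference, the 3 largest between parental lines, the 3 highest by FPKM and the 6 checkpoint genes, and for the 4 largest called changes per line among the other lists the values or folds. Equal replicate numbers gave no sign of pairing: deviations from the group means correlated by -0.106 to 0.072 between same-numbered libraries and by -0.081 to 0.131 between the others. With 3 libraries a group this cannot exclude pairing. All columns were mapped to samples by their tables.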

Additional observations from a re-analysis of the deposited data

Results flagged for a closer look

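The change from parental to resistant cells differed between PC3 and DU145, by the interaction test of the edgeR model with Benjamini-Hochberg adjustment, for 27 of the 37 members. Values are log2 differences, PC3 change minus DU145 change. Of the checkpoint genes, MAD2L1 stood at 1.47, ZWILCH at 0.93, TTK at 0.73, BUB1 at 0.67, ZWINT at 0.67 and BUB3 at 0.33, and BUB1B at -0.27 was larger in DU145. Of the kinases and cyclins, PLK1 stood at 1.06, CCNB1 at 0.81, CCNA2 at 0.78, CCNB2 at 0.67 and CDC25C at 0.55. Of the anaphase genes, PTTG1 stood at 1.36, CDC20 at 1.22 and ESPL1 at 0.61. At the kinetochore, CENPE stood at 1.06, NUF2 at 0.95, CENPF at 0.91, SPC25 at 0.56, NDC80 at 0.35 and KNL1 at 0.28. In the passenger complex, CDCA8 stood at 1.39 and BIRC5 at 0.97, and INCENP at -0.37 was larger in DU145. Of the spindle and cytokinesis genes, ANLN stood at 0.97, TOP2A at 0.71 and TPX2 at 0.24. CENPF was the member whose changes were called in opposite directions in the 2 lines.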

How the results depend on the processing

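Both the direction and the call were kept under every alternative run for 14 of the 25 members higher in DU145-R and for CENPF, for 34 of 35 in PC3-R (all but ECT2), for 22 of the 25 larger in PC3 and for 29 of the 33 called between parental lines. With log2(TPM + 1) the members' median in DU145 was 0.0762, the share of higher calls over all genes was 32.81% against 47.69%, and for the difference between lines 67.75% against 52.48%. There BUB1B (-0.04, adjusted p = 0.645) and INCENP (-0.14, adjusted p = 0.0726) no longer passed as smaller in PC3, and of the other listed genes 12 were called smaller in PC3, against 19. With log2(FPKM + 1) the members' median in PC3 was 0.76. Leaving out single libraries gave 21 to 27 members called in DU145, 34 to 35 in PC3, 24 to 28 for the difference and 31 to 34 between parental lines. With the replicate block 24, 35, 27 and 33 were called.

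Values that turned sign were all of changes that did not pass, apart from MYBL2's difference between lines. With TPM these were, in DU145, PLK1 (-0.0735), CCNA2 (-0.0447), BIRC5 (-0.11) and CDC25C (-0.0182), and in the difference AURKA (0.12), NUSAP1 (0.21, passing there with adjusted p = 0.028), UBE2C (0.14) and MYBL2 (0.0131, against -0.21). With upper-quartile scaling they were ECT2 in DU145 (0.0084) and, in the difference, MAD1L1 (-0.0234) and MKI67 (-0.043). MKI67 was at -0.0022 with no filter, -0.0029 with at least 1 CPM, -0.0098 with log2(FPKM + 1) and -0.003 with log2(FPKM + 0.1). With 1 library left out, ECT2 ranged over -0.066 to 0.0168 and BIRC5 over -0.0056 to 0.0688 in DU145. In the difference MAD1L1 ranged over -0.27 to 0.30, NUSAP1 over -0.0738 to 0.0484, PRC1 over -0.0032 to 0.15 and MKI67 over -0.028 to 0.0646. Between parental lines HMMR ranged over -0.0927 to 0.0278. The cause was not tested.

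Single libraries ended the DU145 calls of ANLN (DU145-R 1 or 2, or DU145 parental 3, adjusted p = 0.079 to 0.108), ESPL1 (DU145-R 3, 0.0524), CCNB2 (8 of 12 libraries, 0.0513 to 0.134), CDCA8 (6, 0.0504 to 0.158), TTK (8, 0.0502 to 0.145) and ZWILCH (7, 0.0532 to 0.151), the PC3 call of ECT2 (10, 0.0504 to 0.217), and the differences of NDC80 (PC3-R 1, 0.0505), CDC25C (9, 0.0518 to 0.114) and KNL1 (10, 0.052 to 0.125). BUB1 passed as lower in DU145-R without DU145-R 1 or DU145 parental 3 (0.0331 to 0.0417). Between parental lines single libraries ended the calls of BUB1B (DU145 parental 1 or 2, PC3 parental 1 or 3, 0.0584 to 0.132), CENPA (DU145 parental 3, PC3 parental 1 or 3, 0.0608 to 0.133) and KNL1 (DU145 parental 1, 0.0858). At 62513103 to 72530254 counts per library, members averaged 898 counts or more. MAD1L1 ranged over 607 to 1418 counts within PC3 parental cells.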
